A study of Mus musculus with 24 samples.

Results

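The genes described here are 8 erythroid genes, *Slc4a1*, *Alas2*, *Car2*, *Epor*, *Klf1*, *Gata1*, *Hemgn*, and *Rhag*, out of 23930 amplicons measured in spleen monocytes. They were chosen by name, with the earlier Ly6C low comparison of these libraries known, and every row of the table that carries 1 of the 8 names was taken. Their differences in Ly6C low monocytes are therefore given as a description without a test, and their Ly6C hi values were tested. The question was whether the whole erythroid program or only some of its genes are read in Ly6C low monocytes.

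RNA came from Ly6C hi and Ly6C low monocytes sorted from spleens of untreated mice, with 4 libraries in each of 6 groups and 24 in all. The genotypes were WT, *Slc29a3*-/-, and *Slc29a3*-/- *Tlr7*-/-, the mutants were made by CRISPR on a C57BL/6 background, and the ages of the mice are not given in the sources used here. *Slc29a3* encodes a lysosomal nucleoside transporter, and *Tlr7* encodes a receptor that senses nucleosides and RNA in endosomes and lysosomes. Both mutations were carried in all cells of the mouse, so the cells sorted are not the only mutant cells. The labels call all sorted cells macrophages and do not say whether replicates are separate mice, so the P values measure the spread between these libraries.

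Red cells arise from progenitors through erythroblasts. The transcription factors GATA1 and KLF1 and the erythropoietin receptor start and sustain this program, and the genes for heme synthesis, the membrane, and globin are then switched on in turn. In the spleen, erythroblasts mature around macrophages, and red pulp macrophages also engulf old red cells. Before sorting, beads had removed lymphocytes, NK cells, neutrophils, and cells that carry TER-119, a surface mark of erythroid cells. The paper reports more erythroblasts in the spleens of *Slc29a3*-/- mice, an increase that depended on *Tlr7*. Whether any such cells remained in the sorted samples was not tested.

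For 6 of the 8 genes, RefSeq sequence upstream of the start was at hand (mm10, GRCm38.p6), and 4 are shown because they are the promoters of 2 genes with high reads in Ly6C low *Slc29a3*-/- libraries, *Alas2* and *Hemgn*, and of 2 regulators with few reads, *Epor* and *Klf1*. Each is the 250 bases before the start, on the strand of the gene. Capitals mark the words AGATAA or TGATAA and the words CCACCC or CACACCC on either strand, and matches that overlap are run together.
Alas2, chrX:150547167-150547416, plus strand: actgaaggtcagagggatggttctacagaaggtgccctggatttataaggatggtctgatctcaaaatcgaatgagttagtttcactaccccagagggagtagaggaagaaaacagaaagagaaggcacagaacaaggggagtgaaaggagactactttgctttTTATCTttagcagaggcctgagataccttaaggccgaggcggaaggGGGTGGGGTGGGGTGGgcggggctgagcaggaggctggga
Hemgn, chr4:46404184-46404433, minus strand: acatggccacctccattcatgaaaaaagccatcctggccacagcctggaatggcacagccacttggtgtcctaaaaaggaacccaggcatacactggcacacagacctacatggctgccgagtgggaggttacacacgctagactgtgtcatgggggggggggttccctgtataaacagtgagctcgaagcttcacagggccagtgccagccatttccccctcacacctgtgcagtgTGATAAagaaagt
Epor, chr9:21963577-21963826, minus strand: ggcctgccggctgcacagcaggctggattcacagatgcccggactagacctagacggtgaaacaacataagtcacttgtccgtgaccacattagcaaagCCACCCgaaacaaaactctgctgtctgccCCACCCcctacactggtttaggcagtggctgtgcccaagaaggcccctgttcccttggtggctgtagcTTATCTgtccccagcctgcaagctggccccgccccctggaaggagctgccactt
Klf1, chr8:84901732-84901981, plus strand: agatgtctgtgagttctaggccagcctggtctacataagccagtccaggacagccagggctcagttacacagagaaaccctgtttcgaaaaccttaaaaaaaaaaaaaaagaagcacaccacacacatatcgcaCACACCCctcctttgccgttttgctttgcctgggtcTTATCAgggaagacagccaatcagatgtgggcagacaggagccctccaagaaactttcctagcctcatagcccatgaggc
The words AGATAA or TGATAA were found in 5 of the 6 promoters (not in *Gata1*) and in 16.6% of all 32851 promoters of the same length. The words CCACCC or CACACCC were found in 5 of the 6 (not in *Hemgn*) and in 32.7% of all. Of the 4 shown, *Alas2*, *Epor*, and *Klf1* held both kinds of word. The genes lie on 7 chromosomes, with *Alas2* (X:150547375-150570638) and *Gata1* (X:7959260-7978071) both on the X chromosome in GENCODE vM21.

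Values are reads scaled to a library total of 1000000 (RPM) for an amplicon, a short stretch of each gene amplified by PCR, so levels cannot be compared between genes. One read was worth 0.0686 to 0.0812 RPM, from which about 12300000 to 14600000 reads per library were inferred, and a value of 0 allows up to 0.206 to 0.244 RPM (3 reads, counting error only). In both subsets, barcodes 11 to 16 belong to WT replicates 1 to 3, whereas WT replicate 4 and all mutants carry barcodes 24 to 46. Values with WT replicate 4 standing alone for WT are therefore given beside comparisons with WT. The Y-linked *Ddx3y* exceeded *Xist* in WT replicate 4 and in *Slc29a3*-/- replicate 1 of both subsets, in *Slc29a3*-/- *Tlr7*-/- replicate 1 of both, and in Ly6C low *Slc29a3*-/- *Tlr7*-/- replicate 3 but not in its Ly6C hi namesake. In Ly6C hi *Slc29a3*-/- *Tlr7*-/-, *Ddx3y* averaged 65.3 ± 45.9 RPM (maximum 106 RPM), so it was also read in libraries where *Xist* was higher. The comparison therefore does not show that each library holds RNA of 1 sex. The amplicon of *Slc29a3* was not lower in the mutants (Ly6C low means of 51.8 RPM in WT, 58.2 in *Slc29a3*-/-, and 55.4 in *Slc29a3*-/- *Tlr7*-/-), so it checks nothing about the labels. The amplicon of *Tlr7* was not lower in *Slc29a3*-/- *Tlr7*-/- either (Ly6C low means of 381, 401, and 527 RPM in the same order) and does not check that label. *Fcgr4*, whose product was used for sorting, averaged 744, 2649, and 1580 RPM in the 3 Ly6C low groups and 33.6 to 52.0 RPM in the Ly6C hi groups. In bulk RNA, more erythroid cells and more RNA per cell cannot be told apart.

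In Ly6C low monocytes, 4 of the 8 genes were read in every *Slc29a3*-/- library above every WT library, and these 4, *Slc4a1*, *Alas2*, *Car2*, and *Hemgn*, code for products of the maturing erythroid cell. The membrane gene *Rhag* stood clear of *Slc29a3*-/- *Tlr7*-/- but not of WT, and *Epor*, *Gata1*, and *Klf1* did not separate in either comparison. The overlaps of these 4 genes with WT rested on WT replicates 1 to 3. Every *Slc29a3*-/- library was above WT replicate 4 for *Rhag* (1.97 to 3.34 against 1.76 RPM), *Epor* (1.27 to 2.94 against 0.843 RPM), and *Gata1* (1.51 to 3.52 against 1.15 RPM). For *Klf1*, the lowest *Slc29a3*-/- library and WT replicate 4 each held 1 inferred read. No member of the 8 separated *Slc29a3*-/- *Tlr7*-/- from WT. Of all 10317 genes tested in Ly6C low, 6.66% lay in every *Slc29a3*-/- library above every WT library, 7.82% above every *Slc29a3*-/- *Tlr7*-/- library, and 3.01% and 9.29% of genes separated *Slc29a3*-/- *Tlr7*-/- from WT upward and downward. By limma, 1.9% were called higher and 2.53% lower in *Slc29a3*-/- than in WT, 1.22% and 0.708% in *Slc29a3*-/- than in *Slc29a3*-/- *Tlr7*-/-, and 2.28% and 6.03% in *Slc29a3*-/- *Tlr7*-/- than in WT. These shares stand beside the member counts only as background, because the same comparison chose the members.

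**Figure D1:**
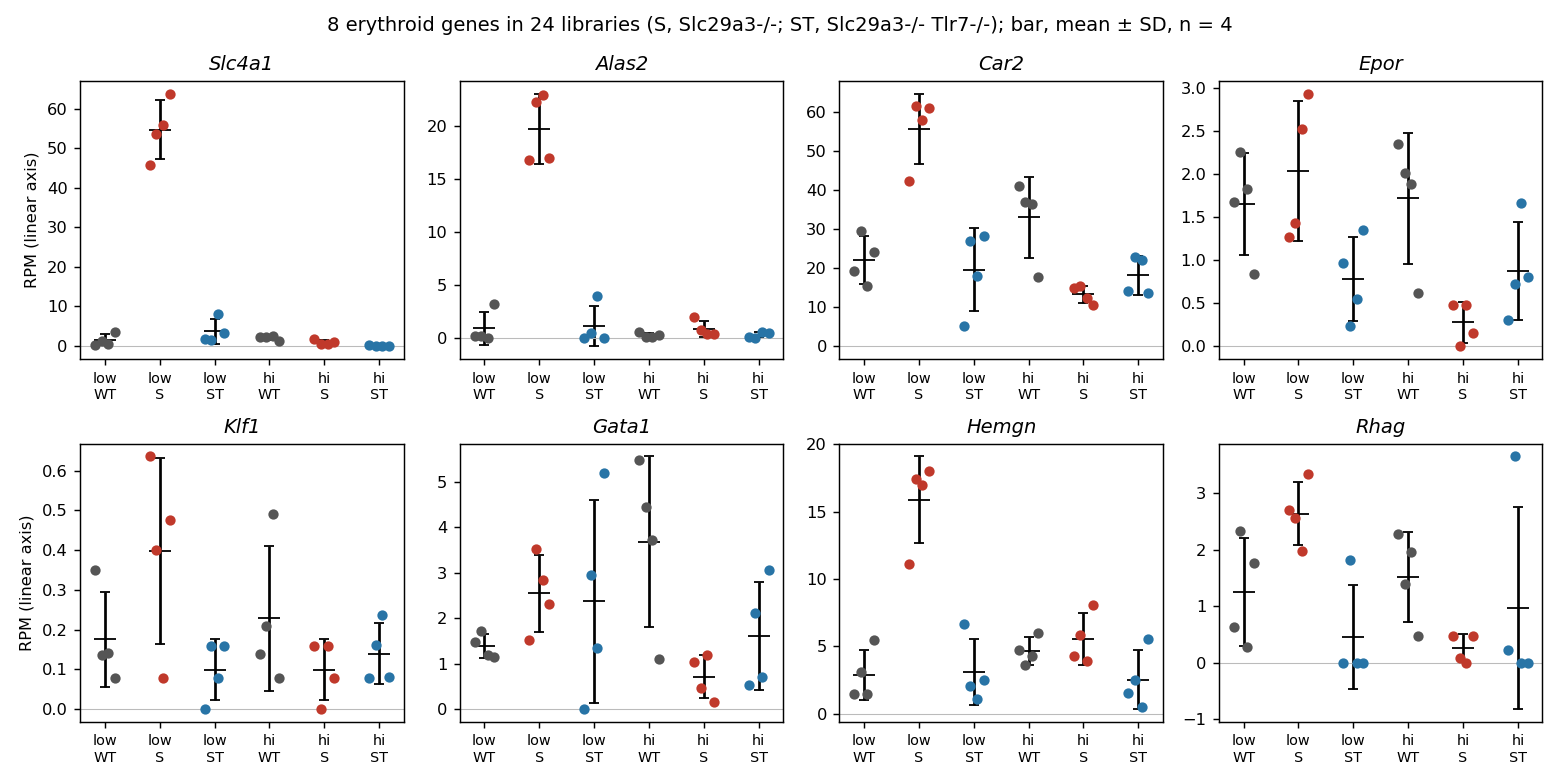
RPM of each member gene (vertical axes) in the 4 libraries of each of the 6 groups (S, *Slc29a3*-/-; ST, *Slc29a3*-/- *Tlr7*-/-), with 1 point per library and the mean and SD of each group. The Ly6C low *Slc29a3*-/- points of *Slc4a1* lie between 45.7 and 63.9 RPM, above all other libraries, whereas those of *Epor* and *Gata1* lie among the others.

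*Slc4a1* encodes band 3, the anion exchanger of the red cell membrane. In Ly6C low WT replicates 1 to 4 it was read at 0.28, 1.24, 0.351, and 3.53 RPM, in *Slc29a3*-/- at 45.7, 53.6, 55.9, and 63.9 RPM, and in *Slc29a3*-/- *Tlr7*-/- at 1.62, 1.43, 8.13, and 3.28 RPM. The lowest *Slc29a3*-/- library was above the highest of both other genotypes. The means were 1.35 ± 1.52, 54.8 ± 7.47, and 3.61 ± 3.12 RPM (SD, n = 4), so that the *Slc29a3*-/- mean was 40.6 times that of WT and 15.2 times that of *Slc29a3*-/- *Tlr7*-/-. The differences of mean log2(RPM + 1), where the change of low genes comes out too small, were 4.76 and 3.80, and the former was 3.61 with WT replicate 4 as the only WT.

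*Alas2* encodes the erythroid form of the first enzyme of heme synthesis. It was read at 0.21, 0.206, 0, and 3.22 RPM in Ly6C low WT, at 16.8, 22.3, 23.0, and 17.0 RPM in *Slc29a3*-/-, and at 0, 0.477, 3.95, and 0 RPM in *Slc29a3*-/- *Tlr7*-/-. WT replicate 4 and *Slc29a3*-/- *Tlr7*-/- replicate 3 were high within their groups but below every *Slc29a3*-/- library. The means were 0.909 ± 1.54, 19.8 ± 3.33, and 1.11 ± 1.91 RPM, with ratios of 21.7 over WT and 17.9 over *Slc29a3*-/- *Tlr7*-/-. The log2 difference from WT was 3.71, and 2.28 with WT replicate 4 as the only WT.

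*Hemgn* encodes hemogen, a nuclear protein of blood-forming and erythroid cells. Ly6C low WT libraries held 1.47, 3.09, 1.48, and 5.44 RPM, *Slc29a3*-/- libraries 11.1, 17.4, 17.0, and 18.03 RPM, and *Slc29a3*-/- *Tlr7*-/- libraries 6.62, 2.07, 1.11, and 2.48 RPM. Every *Slc29a3*-/- library was above the other genotypes, with replicate 1 the lowest of its group. The *Slc29a3*-/- mean of 15.9 ± 3.20 RPM was 5.54 times the WT mean (2.87 ± 1.88 RPM) and 5.18 times the *Slc29a3*-/- *Tlr7*-/- mean (3.07 ± 2.44 RPM). The log2 difference from WT was 2.22, and 1.37 with WT replicate 4 as the only WT.

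*Car2* encodes carbonic anhydrase 2, which is abundant in red cells and is also made by other cell types. It differed from the other 3 in that WT already held 19.4, 29.5, 15.5, and 24.1 RPM in Ly6C low, beside 42.3, 61.4, 57.9, and 61.0 RPM in *Slc29a3*-/- and 5.25, 26.9, 18.2, and 28.4 RPM in *Slc29a3*-/- *Tlr7*-/-. *Slc29a3*-/- again stood clear of both other genotypes, which overlapped each other, but its mean (55.7 ± 9.05 RPM) was 2.52 times that of WT (22.1 ± 6.04 RPM) and 2.83 times that of *Slc29a3*-/- *Tlr7*-/- (19.7 ± 10.6 RPM). On the log2 scale *Car2* differed from WT by 1.32, and by 1.16 with WT replicate 4 as the only WT.

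*Rhag* encodes the Rh-associated glycoprotein, which carries the Rh complex in the red cell membrane. Its Ly6C low values were 0.629, 2.33, 0.281, and 1.76 RPM in WT, 2.70, 2.56, 1.97, and 3.34 RPM in *Slc29a3*-/-, and 0, 1.83, 0, and 0 RPM in *Slc29a3*-/- *Tlr7*-/-. *Slc29a3*-/- replicate 3 was below WT replicate 2, so these groups overlapped, whereas *Slc29a3*-/- was above *Slc29a3*-/- *Tlr7*-/- throughout. The means were 1.25 ± 0.959, 2.64 ± 0.560, and 0.457 ± 0.914 RPM.

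The 3 regulators were read at a few RPM or less in all Ly6C low libraries. *Epor*, the erythropoietin receptor, was read at 1.68, 2.27, 1.83, and 0.843 RPM in WT, at 1.27, 1.44, 2.52, and 2.94 RPM in *Slc29a3*-/-, and at 0.969, 0.238, 0.552, and 1.36 RPM in *Slc29a3*-/- *Tlr7*-/-. The ranges overlapped, and the means were 1.65 ± 0.595, 2.04 ± 0.815, and 0.779 ± 0.488 RPM. *Gata1*, the lead transcription factor of the program and also active in megakaryocytes, eosinophils, and basophils, was read at 1.47, 1.72, 1.19, and 1.15 RPM in WT, at 1.51, 3.52, 2.84, and 2.30 RPM in *Slc29a3*-/-, and at 0, 2.94, 1.34, and 5.19 RPM in *Slc29a3*-/- *Tlr7*-/-. The highest *Gata1* library was a *Slc29a3*-/- *Tlr7*-/- one, and the means of both mutant groups (2.54 ± 0.849 and 2.37 ± 2.23 RPM) lay close together, above that of WT (1.38 ± 0.263 RPM). *Klf1*, the factor that switches on adult globin and membrane genes, was at or near the limit of detection, with 0.349, 0.137, 0.14, and 0.077 RPM in WT, 0.636, 0.4, 0.079, and 0.477 RPM in *Slc29a3*-/-, and 0, 0.159, 0.079, and 0.16 RPM in *Slc29a3*-/- *Tlr7*-/-. No ratio is given for *Klf1*, because the WT and *Slc29a3*-/- *Tlr7*-/- means (0.176 and 0.0995 RPM) were below what 3 reads are worth.

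Across the 6 groups of both subsets, Ly6C low *Slc29a3*-/- had the highest mean of 7 of the 8 genes, and for *Gata1* the highest was Ly6C hi WT with 3.68 RPM. This count is a description only, because the Ly6C low comparison was known when the genes were chosen. For *Slc4a1*, the order below Ly6C low *Slc29a3*-/- was Ly6C low *Slc29a3*-/- *Tlr7*-/- (3.61 RPM), Ly6C hi WT (2.02 RPM), Ly6C low WT (1.35 RPM), Ly6C hi *Slc29a3*-/- (0.854 RPM), and Ly6C hi *Slc29a3*-/- *Tlr7*-/- (0.077 RPM). Among neighbours in that order, only the first pair and the last pair did not overlap. *Alas2*, *Car2*, and *Hemgn* each separated only at the top, with the next groups at 1.11 RPM (Ly6C low *Slc29a3*-/- *Tlr7*-/-), 33.1 RPM (Ly6C hi WT), and 5.53 RPM (Ly6C hi *Slc29a3*-/-). No neighbouring groups separated for *Epor*, *Klf1*, *Gata1*, or *Rhag*. Over the 12 Ly6C low libraries, which include the contrast that chose the genes, *Slc4a1* correlated with *Alas2* at r = 0.96 and with *Hemgn* at r = 0.85, whereas *Gata1* correlated with *Hemgn* at r = 0.14 and *Epor* with *Slc4a1* at r = 0.34 (Pearson, log2 values, description only).

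**Figure D2:**
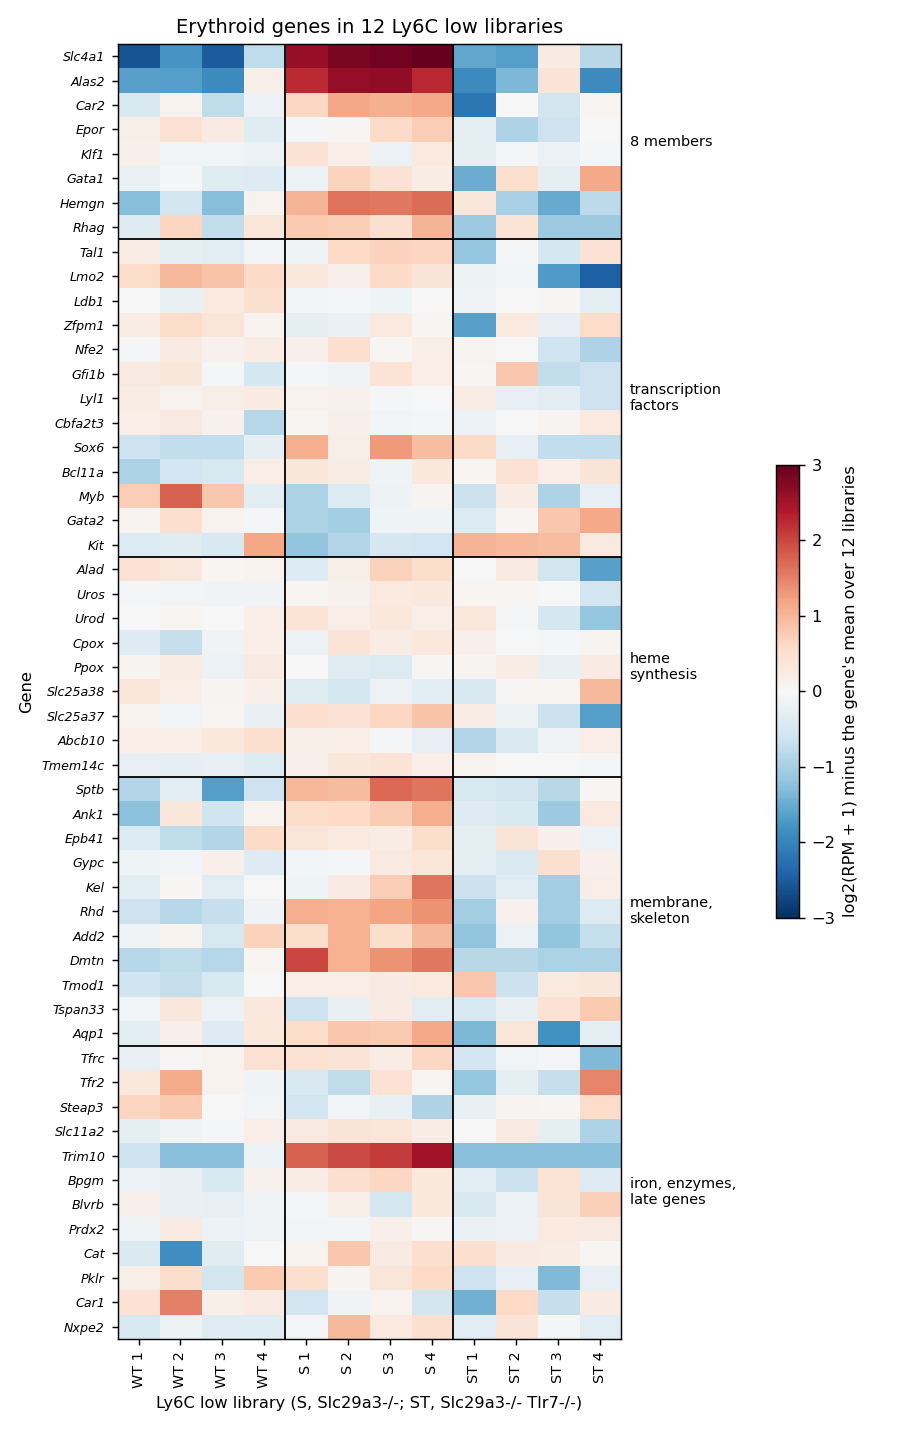
Level of the members and of other erythroid genes (rows, by list) in the 12 Ly6C low libraries (columns; S, *Slc29a3*-/-; ST, *Slc29a3*-/- *Tlr7*-/-), as log2(RPM + 1) minus the mean of each gene over these libraries. *Slc4a1*, *Alas2*, *Hemgn*, and *Trim10* stand high in the 4 *Slc29a3*-/- columns, and among the transcription factors the pattern is seen for *Sox6*.

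The rest of the erythroid program was read from 5 lists of 68 genes, of which 57 have a row in the table and 48 passed the filter in Ly6C low (1 RPM or more in 4 or more of the 12 libraries). In *Slc29a3*-/- against WT, 7 of the 48 rose and none fell by limma, at a Benjamini-Hochberg adjusted P under 0.05 over all 10317 genes and a fold change over 1.5. That is 14.6% of the genes tested, against 1.9% of all genes called higher, but the 2 shares cannot be set against each other as they stand, because 6 of the 7 (among them *Dmtn*, *Rhd*, *Sox6*, and *Trim10*) passed the filter only with the *Slc29a3*-/- libraries, in which they were high. Of the 40 genes that passed without those libraries, 1 was called (*Sptb*), or 2.5% against 1.62% of all genes of that kind, and their median log2 fold change was 0.13. Without a filter, limma called 7 of all 57 genes higher and none lower, or 12.3% against 0.439% of all 23930 genes called higher. Of the 57 genes 48 had passed the filter, but of the 23930 only 10317, and genes below it can seldom be called. These 2 shares therefore cannot be set against each other either. At an unadjusted P under 0.05 with the same fold, 21 of the 48 passed (17 higher, 4 lower). Without WT replicate 4, limma called 13. With WT replicate 4 standing alone for WT it called 1 (*Trim10*), where the lone library is assumed to vary like the other groups, and all 7 genes still differed from it by 1.13 to 2.76 on the log2 scale, beside 1.46 to 3.33 from all WT libraries.

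Of 12 red cell membrane and skeleton genes tested, 4 rose, and the median log2 fold change of the list was 0.83. Those named here were named after their values were seen. *Sptb*, which encodes the β chain of the spectrin skeleton, was read at 1.19, 2.20, 0.281, and 1.61 RPM in WT, at 6.997, 6.72, 11.99, and 11.1 RPM in *Slc29a3*-/-, and at 1.86, 1.75, 1.26, and 3.12 RPM in *Slc29a3*-/- *Tlr7*-/-. All *Slc29a3*-/- libraries were above both other genotypes, and *Sptb* rose by 2.18 ± 0.31 (log2 fold change ± SE, limma adjusted P = 0.00104). Calls were also made for *Dmtn*, which encodes the actin-bundling dematin (2.09 ± 0.27, limma adjusted P = 0.00053), and *Rhd*, which encodes the Rh blood group antigen (1.74 ± 0.28, adjusted P = 0.00352), both of which passed the filter only with the *Slc29a3*-/- libraries. *Ank1*, which encodes the ankyrin that ties spectrin to band 3, had WT and *Slc29a3*-/- means of 2.41 ± 1.53 and 5.72 ± 1.18 RPM and was not called (1.09 ± 0.35, limma adjusted P = 0.0948). *Epb42*, which encodes protein 4.2, was read at 1.11, 2.4, 1.97, and 0.794 RPM in *Slc29a3*-/-, at 0.07 RPM in 1 WT library and 0.242 RPM in 1 *Slc29a3*-/- *Tlr7*-/- library, and at 0 elsewhere in Ly6C low. *Epb42* was below the filter and was not tested.

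Of 13 iron uptake, enzyme, and late erythroid genes tested, 2 rose. *Trim10*, named after its values were seen, encodes a RING finger protein of maturing erythroid cells and was read at 0.559, 0, 0, and 1.15 RPM in WT, at 7.24, 8.48, 9.31, and 12.7 RPM in *Slc29a3*-/-, and at 0 in all 4 *Slc29a3*-/- *Tlr7*-/- libraries. It rose by 2.92 ± 0.27 over WT (limma adjusted P = 2.78e-05), having passed the filter only with the *Slc29a3*-/- libraries, and its *Slc29a3*-/- mean was at least 39.4-fold higher than the 3-read limit of *Slc29a3*-/- *Tlr7*-/- libraries. *Bpgm*, which makes the 2,3-bisphosphoglycerate that lowers the oxygen affinity of hemoglobin, was 10.4 ± 1.96 and 16.3 ± 2.12 RPM and was not called (0.61 ± 0.23, limma adjusted P = 0.158). *Tfrc*, which encodes the transferrin receptor, gave 0.34 ± 0.27 (adjusted P = 0.527), *Prdx2*, which encodes a peroxiredoxin of red cells, gave 0.05 ± 0.16 (adjusted P = 0.913), and *Car1*, which encodes carbonic anhydrase 1, gave -0.87 ± 0.40 (adjusted P = 0.239).

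Among 10 heme synthesis and mitochondrial transport genes tested, limma called none. Of these, 2 had an unadjusted P under 0.05 but a fold change below 1.5, and 1 of the 2, *Tmem14c*, which encodes a mitochondrial membrane protein of heme synthesis, was also past the adjusted P (0.57 ± 0.12, limma adjusted P = 0.0139; named after its values were seen). *Slc25a37*, which encodes the mitochondrial iron importer mitoferrin 1, had means of 11.97 ± 1.29 RPM (WT) and 19.2 ± 2.73 RPM (*Slc29a3*-/-) and a log2 fold change of 0.64 ± 0.32 (limma adjusted P = 0.281). *Fech*, which encodes the last enzyme of the pathway, lay between 0.383 and 0.8 RPM in all Ly6C low libraries and was not tested. Among 13 transcription factors and regulators other than *Gata1* and *Klf1*, 1 rose: *Sox6*, a factor that silences embryonic globin and is also used outside blood, was read at 0.07, 0, 0, and 0.383 RPM in WT and at 2.54, 0.88, 2.997, and 2.15 RPM in *Slc29a3*-/- (1.46 ± 0.32, limma adjusted P = 0.0188; named after its values were seen, and past the filter only with the *Slc29a3*-/- libraries). The median log2 fold change of this list was -0.14. *Tal1*, *Nfe2*, *Gfi1b*, and *Lmo2*, which encode partners or targets of GATA1, had log2 fold changes of 0.56, 0.08, 0.10, and -0.38, with adjusted P from 0.354 to 0.907.

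Of the globins and their chaperone, 3 of 10 genes have a row in the table, and the adult globins were not analysed here. The embryonic *Hbb-bh1*, *Hbb-y*, and *Hba-x* were at 0 in all 4 Ly6C low WT libraries. In *Slc29a3*-/- replicates 1 to 4, *Hba-x* was read at 1.67, 0.24, 0.079, and 0 RPM, *Hbb-y* at 0.795, 0.24, 0.079, and 0.079 RPM, and *Hbb-bh1* at 0.08, 0, 0.158, and 0.159 RPM. Only replicate 1 exceeded 0.244 RPM, and none of the 3 genes was tested.

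**Figure D3:**
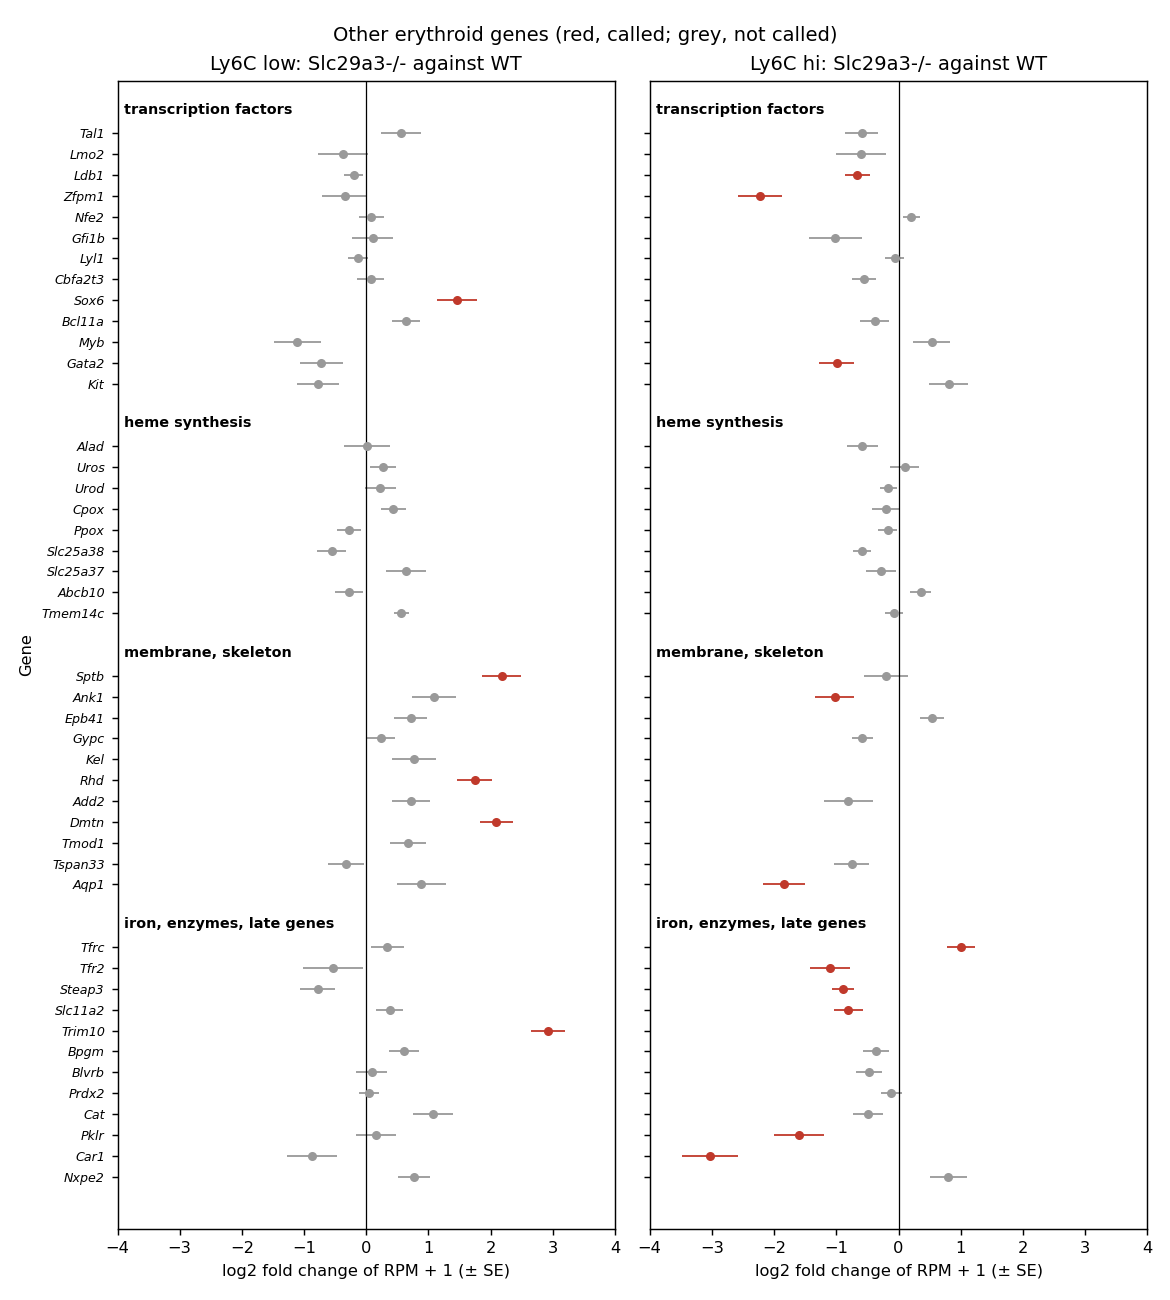
Log2 fold change of RPM + 1 (horizontal axes, ± SE, limma) of other erythroid genes tested, by list, in *Slc29a3*-/- against WT in Ly6C low (left) and Ly6C hi (right), with called genes in red. The 5 called genes drawn on the left are all higher, led by *Trim10* at 2.92, and 10 of the 11 called on the right are lower, led by *Car1* at -3.04.

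Against *Slc29a3*-/- *Tlr7*-/-, which shares the *Slc29a3*-/- libraries with the comparison above, limma called 8 of the 48 other erythroid genes in Ly6C low. Of these, 7 were higher in *Slc29a3*-/-, among them *Add2*, *Dmtn*, *Rhd*, *Sptb*, and *Trim10*, and 5 of the 7 are membrane and skeleton genes. Of the 7, 5 passed the filter only with the *Slc29a3*-/- libraries (the others were *Add2* and *Sptb*), so 2 of 40 were called higher among genes that passed without them (5%, against 0.897% of all such genes), and 8 of 57 without a filter (14%, against 0.368% of all genes). As in the comparison with WT, the 2 shares without a filter cannot be set against each other. *Trim10* differed by 3.36 ± 0.27 (limma adjusted P = 5.09e-05), *Dmtn* by 2.38 ± 0.27 (adjusted P = 0.000396), and *Sptb* by 1.76 ± 0.31 (adjusted P = 0.0065). *Kit*, which encodes the stem cell factor receptor of early progenitors, was the gene lower in *Slc29a3*-/- (3.12 ± 0.852 against 11.4 ± 2.61 RPM, limma adjusted P = 0.0248). Leaving out *Slc29a3*-/- replicate 2 or replicate 4 gave 5 calls each.

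*Slc29a3*-/- *Tlr7*-/- differed from WT in Ly6C low by 1 call of 48, where 2.28% of all genes were called higher and 6.03% lower. *Lmo2*, which bridges TAL1 and GATA1 and is also expressed in macrophages, fell by 1.83 ± 0.40 (172 ± 25.3 RPM in WT and 59.1 ± 40.3 RPM in *Slc29a3*-/- *Tlr7*-/-, limma adjusted P = 0.0205). Its difference was -1.66 with WT replicate 4 as the only WT. No called gene was left in that fit or without any 1 of WT replicates 1 to 3 or *Slc29a3*-/- *Tlr7*-/- replicate 3, where the limma count was 0. Without WT replicate 4 the count was 6, and without *Slc29a3*-/- *Tlr7*-/- replicates 1, 2, and 4 it was 4, 7, and 2. At an unadjusted P under 0.05 with the same fold, 13 of the 48 passed.

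In Ly6C hi monocytes, from which Ly6C low monocytes arise, the members that were tested went down or did not pass the test. Of the 8, 6 passed the filter (*Alas2* and *Klf1* did not), and 3 fell in *Slc29a3*-/- against WT, where 8.15% of all 10561 genes were called higher and 14.3% lower. *Car2* was read at 41.1, 36.9, 36.6, and 17.9 RPM in WT and at 14.9, 15.4, 12.4, and 10.7 RPM in *Slc29a3*-/-, without overlap (as were 21.8% of all genes, lower), and fell by 1.20 ± 0.26 (limma adjusted P = 0.00394). *Epor* was read at 2.36, 2.01, 1.89, and 0.624 RPM in WT and at 0.478, 0, 0.476, and 0.159 RPM in *Slc29a3*-/-, without overlap, and fell by 1.06 ± 0.30 (limma adjusted P = 0.0165). *Gata1* was read at 5.48, 4.44, 3.71, and 1.09 RPM in WT and at 1.04, 0.474, 1.19, and 0.159 RPM in *Slc29a3*-/- and fell by 1.38 ± 0.39 (limma adjusted P = 0.0178). For all 3 genes WT replicate 4 was the lowest WT library, and for *Gata1* it lay within the range of *Slc29a3*-/-. With it as the only WT library, limma called 0 of the 6 members, and *Car2*, *Epor*, and *Gata1* differed from it by -0.41, -0.36, and -0.33 on the log2 scale, against -1.20, -1.06, and -1.38 from all WT libraries. *Epor*, *Slc4a1*, and *Rhag* passed the filter in Ly6C hi only with the WT libraries, and 2 of the 3 members that passed without them were called (*Car2* and *Gata1*), where 12.8% of all such genes were called lower. Without WT replicate 1 or WT replicate 2, 1 member was called.

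The other 3 members tested in Ly6C hi did not pass in this comparison. *Slc4a1* was read at 2.22, 2.15, 2.45, and 1.25 RPM in WT and at 1.75, 0.395, 0.396, and 0.874 RPM in *Slc29a3*-/- (-0.74 ± 0.27, limma adjusted P = 0.0533), and *Rhag* at 2.29, 1.39, 1.96, and 0.468 RPM and at 0.478, 0.079, 0, and 0.477 RPM (-0.96 ± 0.44, adjusted P = 0.117). *Hemgn* was read at 4.72, 3.61, 4.27, and 6.01 RPM in WT and at 4.30, 5.85, 3.89, and 8.10 RPM in *Slc29a3*-/- (0.18 ± 0.37, limma adjusted P = 0.747). The value of *Slc4a1* passed without WT replicate 4 (-0.88) and without *Slc29a3*-/- replicate 1 (-0.95). *Alas2*, below the filter, lay between 0.069 and 0.555 RPM in WT, between 0.396 and 1.99 RPM in *Slc29a3*-/-, and between 0 and 0.554 RPM in *Slc29a3*-/- *Tlr7*-/-, and *Klf1* was at most 0.49 RPM in all 12 Ly6C hi libraries.

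In Ly6C hi *Slc29a3*-/- *Tlr7*-/- against WT, where 0.312% of all genes were called higher and 1.11% lower, *Slc4a1* was the member that fell. It was read at 0.308, 0, 0, and 0 RPM in *Slc29a3*-/- *Tlr7*-/-, below every WT library (as were 6.32% of all genes), and fell by 1.48 ± 0.27 (limma adjusted P = 0.0339). It passed the filter only with the WT libraries, so that 0 of the 3 members that passed without them were called. The call rested on many libraries: limma called 0 members without any 1 of WT replicates 1, 2, and 3 or *Slc29a3*-/- *Tlr7*-/- replicates 2, 3, and 4, or with WT replicate 4 as the only WT (a difference of -1.07), and 3 members without WT replicate 4. *Gata1* had values of 0.539, 2.11, 0.713, and 3.05 RPM and *Epor* of 0.308, 0.731, 1.66, and 0.802 RPM in *Slc29a3*-/- *Tlr7*-/-, and neither passed (limma adjusted P = 0.213 and 0.299). Between the mutants, where 9% of all genes were called higher and 8.22% lower in *Slc29a3*-/-, limma called 0 of the 6 members, and 2 had an unadjusted P under 0.05 with a fold over 1.5. These were *Hemgn* (1.06 ± 0.37, limma adjusted P = 0.0555), read at 1.54, 2.52, 0.475, and 5.53 RPM in *Slc29a3*-/- *Tlr7*-/-, and *Slc4a1* (0.74 ± 0.27, adjusted P = 0.0677). *Hemgn* was called without *Slc29a3*-/- *Tlr7*-/- replicate 4 (1.42) and under TMM and RLE scaling (1.18 and 1.13).

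Of the other erythroid genes, 41 were tested in Ly6C hi, and in *Slc29a3*-/- against WT 10 fell and 1 rose. Of all 10561 genes in that comparison, 14.3% were called lower and 8.15% higher. *Car1* fell by 3.04 ± 0.45 (80.7 ± 41.4 RPM in WT and 7.30 ± 1.13 RPM in *Slc29a3*-/-, limma adjusted P = 0.000479), and *Ank1* fell by 1.03 ± 0.32 (adjusted P = 0.0259). The gene that rose was *Tfrc* (14.9 ± 1.77 and 32.2 ± 10.8 RPM, 1.00 ± 0.22, limma adjusted P = 0.0049). The remaining calls, all lower, were *Ldb1*, *Zfpm1*, *Gata2*, *Aqp1*, *Tfr2*, *Steap3*, *Slc11a2*, and *Pklr*. With WT replicate 4 standing alone for WT, limma called 0 of the 41, all 11 genes kept their direction, and 7 still differed from it by over 1.5-fold, with a median difference of -0.64 on the log2 scale against -1.03 from all WT libraries. Without WT replicate 2 it called 7. The median log2 fold change of all genes in this comparison was -0.14 as deposited and 0.02 after TMM scaling, so the split of calls over all genes moved from 861 higher and 1507 lower to 1305 and 1059. Between the mutants in Ly6C hi it moved from 951 higher and 868 lower to 1211 and 502 under TMM, and between Ly6C low *Slc29a3*-/- *Tlr7*-/- and WT from 235 and 622 to 441 and 461 under RLE. *Slc29a3*-/- *Tlr7*-/- against WT gave 1 call of 41, *Slc25a37* (-1.12 ± 0.24, limma adjusted P = 0.0425), which was lost without any 1 of 6 libraries (WT replicates 1 to 3 and *Slc29a3*-/- *Tlr7*-/- replicates 2 to 4) and became 9 calls without WT replicate 4 and 3 without *Slc29a3*-/- *Tlr7*-/- replicate 1. Of all genes, 0.312% were called higher and 1.11% lower in *Slc29a3*-/- *Tlr7*-/- than in WT. Between the mutants, 3 were higher in *Slc29a3*-/- (*Myb*, *Slc25a37*, and *Tfrc*) and 6 lower (*Zfpm1*, *Gata2*, *Ank1*, *Aqp1*, *Steap3*, and *Car1*), and limma called 5 without *Slc29a3*-/- replicate 4. Of all genes, 9% were called higher and 8.22% lower in *Slc29a3*-/- than in *Slc29a3*-/- *Tlr7*-/-.

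The genotype effect differed between the subsets for several of the named examples outside the 8 members, as an interaction in a limma fit of all 24 libraries. This fit takes the Ly6C hi and Ly6C low libraries as independent, which was not checked. For *Slc29a3*-/- against WT, *Ank1* had a log2 fold change of 1.09 in Ly6C low and -1.03 in Ly6C hi (limma adjusted P of the difference = 0.00612). The differences for *Bpgm* (0.61 and -0.36, limma adjusted P = 0.0463) and *Car1* (-0.87 and -3.04, adjusted P = 0.0372) were past the threshold as well. With WT replicate 4 as the only WT, the Ly6C hi differences shrank to -0.56 for *Ank1* and -1.25 for *Car1*.

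Other cell types that the sort could hold were read from marker lists in the same libraries. The 8 Ly6C low monocyte genes summed to 8386 to 13177 RPM in WT, 11969 to 15112 RPM in *Slc29a3*-/-, and 12905 to 17993 RPM in *Slc29a3*-/- *Tlr7*-/- of Ly6C low, and to 1427 to 4177 RPM in Ly6C hi libraries. The 8 red pulp macrophage genes summed to 613 to 679 RPM in Ly6C low WT and 826 to 1201 RPM in *Slc29a3*-/-, which did not overlap, and to 532 to 1639 RPM in *Slc29a3*-/- *Tlr7*-/-. Within that list, 3 genes were above WT in all *Slc29a3*-/- libraries, namely *Spic*, the defining factor of red pulp macrophages (8.78 to 14.3 RPM against 22.02 to 41.7 RPM), *Adgre1*, which encodes F4/80 (101.4 to 199 against 254 to 324 RPM), and *Hmox1*, which encodes the enzyme that breaks down heme (328 to 362 against 436 to 504 RPM). *Cd163*, which encodes the receptor for haptoglobin-bound hemoglobin, went the other way (11.9 to 15.3 against 0 to 1.34 RPM), and *Vcam1*, *Slc40a1*, *Cd5l*, and *Axl* overlapped. The part of such cells in the *Slc4a1* and *Alas2* values was not tested.

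**Figure D4:**
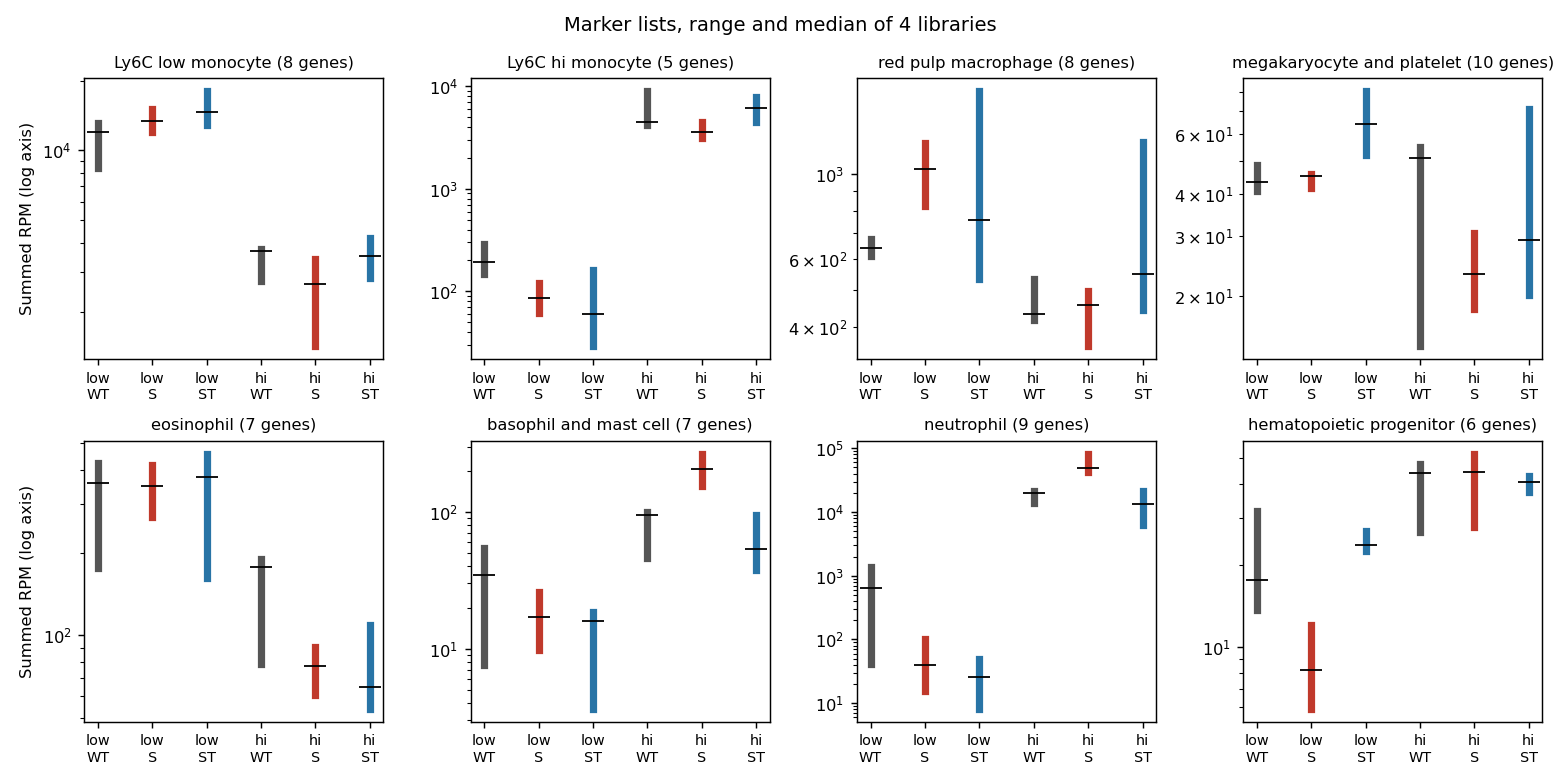
Summed RPM of each marker list (log axis) in the Ly6C low and Ly6C hi groups (S, *Slc29a3*-/-; ST, *Slc29a3*-/- *Tlr7*-/-), shown as the range over the 4 libraries of a group and their median. The red pulp macrophage sum of Ly6C low *Slc29a3*-/- (826 to 1201 RPM) lies above that of WT (613 to 679 RPM), and the megakaryocyte and platelet sums of these groups overlap.

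Summed marker levels of the other lineages that use *Gata1* overlapped between WT and *Slc29a3*-/- in Ly6C low, although 1 gene made up most of some sums. The 10 megakaryocyte and platelet genes summed to 40.7 to 48.4 RPM in WT, 41.7 to 45.8 RPM in *Slc29a3*-/-, and 52.0 to 80.2 RPM in *Slc29a3*-/- *Tlr7*-/-, of which *Vwf* took 12.7 to 39.4 RPM in WT and 27.4 to 32.1 RPM in *Slc29a3*-/-. The 7 eosinophil genes summed to 176 to 424, 269 to 418, and 162 to 457 RPM, of which *Ear6* took 131 to 403 RPM in WT and 265 to 408 RPM in *Slc29a3*-/-. Within that list, *Ccr3*, the eotaxin receptor, and *Siglecf* lay below WT in all *Slc29a3*-/- libraries (7.55 to 11.5 against 0.477 to 3.10 RPM, and 0.46 to 1.03 against 0.159 to 0.315 RPM). The 7 basophil and mast cell genes summed to 7.59 to 54.3, 9.78 to 26.1, and 3.63 to 18.5 RPM, and 1 of the 7 lay below WT in all *Slc29a3*-/- libraries and none above. The 6 hematopoietic progenitor genes were lower in *Slc29a3*-/- (5.88 to 12.1 RPM) than in WT (13.6 to 31.7 RPM) and *Slc29a3*-/- *Tlr7*-/- (22.5 to 26.8 RPM). The 5 Ly6C hi monocyte genes summed to 149 to 291, 61.4 to 120, and 29.004 to 161 RPM, and the 9 neutrophil genes to 40.8 to 1352, 15.6 to 101.2, and 8.10 to 48.7 RPM. In Ly6C hi, where *Car2*, *Epor*, and *Gata1* were lower in *Slc29a3*-/-, the neutrophil genes summed to 13766 to 21522 RPM in WT and 42329 to 81494 RPM in *Slc29a3*-/-. The basophil and mast cell genes summed to 46.3 to 99.99 and 154 to 265 RPM there, but nearly all of the sum was *Hdc*, which encodes histidine decarboxylase (40.4 to 69.7 and 148 to 256 RPM). *Hdc* was the 1 gene of the 7 above WT in all *Slc29a3*-/- libraries, whereas *Cpa3* (0.624 to 3.36 against 0 to 0.557 RPM), *Fcer1a* (0.156 to 1.26 against 0 to 0.08 RPM), and *Gata2* (0.858 to 2.98 against 0.318 to 0.793 RPM) lay below. *Mcpt8* and *Prss34* had lower means (7.70 and 1.98 RPM, and 7.93 and 0.853 RPM) with ranges that overlapped. *Ms4a2* had a higher mean (2.26 and 4.13 RPM), also with overlap. Of the eosinophil genes, *Ccr3* lay below WT (4.90 to 5.83 against 0 to 0.079 RPM). *Siglecf* had a higher mean in *Slc29a3*-/- (4.57 and 11.9 RPM) with ranges that overlapped, and the rest of that list had lower means with overlap. The part of these cell types in the lower values of the members was not tested.

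The genes whose pattern was most like that of each member were searched among 10339 genes with a mean of at least 1 RPM, by Pearson's r of log2(RPM + 1) over the 24 libraries, which share groups and depth, so that r is a description. The 3 closest to *Slc4a1* included *Cldn10* (r = 0.93), and those closest to *Alas2* included *Hebp1* (0.92). *Hemgn* was closest to *Trim10* (0.78), *Bard1* (0.76), and *Slc4a8* (0.75), *Car2* to *Aqp1* (0.86), *Dst* (0.81), and *Add2* (0.79), and *Rhag* to *Slc43a1* (0.74), *Aqp1* (0.73), and *Gm3230* (0.70). *Klf1* was closest to *Fap* (0.66), *Rhd* (0.60), and *Trim10* (0.59), at levels where few reads were counted. *Epor* was closest to *Vstm4* (0.82), the basophil gene *Prss34* (0.81), and *Clec4n* (0.79), and *Gata1* to *Gatsl3* (0.76), *Slc39a4* (0.76), and *Id3* (0.75). None of the 3 closest genes of *Epor* or *Gata1* stands in the erythroid lists, and each of the other 6 members had at least 1 gene of the lists among its 3. The 24 libraries include the Ly6C low contrast that was known when members and lists were chosen. This split is therefore a description and not separate evidence about the members.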

How the data were processed

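Spleen monocytes were profiled in 24 libraries, grouped by the labels into 2 subsets and 3 genotypes. Per the labels and the methods, 1 ng of RNA (RIN over 7.3) was amplified with the Ion AmpliSeq Transcriptome Mouse kit. The authors deposited 1 table of RPM (reads scaled to 1000000 per library) of 23930 amplicons. The labels name the AmpliSeqRNA plug-in, whereas the methods give Cutadapt, STAR on mm10, HTSeq, and RLE normalization with DESeq2, and which step wrote the table is not stated. Zero reads are written there as 0.0001 and were set to 0, and 27 names turned into dates were repaired from the amplicon names. Amplification by PCR without molecular identifiers means that limits from reads cover counting error only. Low values were whole multiples of 1 step per library (100% of values under 5 RPM within 0.1 read), which gave the inferred depth.

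In each subset, genes that reached 1 RPM in 4 or more of its 12 libraries were kept, and log2(RPM + 1) values of all 3 genotypes entered 1 linear model (limma 3.58.1, R 4.3.3, intensity trend). A gene was called at a Benjamini-Hochberg adjusted P under 0.05 over all genes tested and a fold change over 1.5. In Ly6C low, members were not tested, and 7 of the 8 passed the filter (not Klf1). The members, the lists, and the tests were chosen with earlier results of these data known. Genes were named as members, as fixed examples of each list, as the 3 genes most like each member, or as every call where 5 or fewer were made; others are marked where named or listed as calls. Some genes of the lists are counted in the tests but are not reported by name or drawn here. Marker lists were summed as RPM. Promoters came from RefSeq (GRCm38.p6), positions from GENCODE vM21. Alternatives were TMM and RLE scaling (written for this purpose), no filter, a pseudocount of 0.1, a fit of 2 groups, a fit of 24 libraries, a replicate block, no intensity trend, unadjusted P, each library left out, WT replicate 4 as the only WT, and, chosen after seeing the data, only genes that pass the filter without 1 of the compared groups. On simulated data for Slc29a3-/- against WT in Ly6C low (10317 genes), the fit recovered 62% of genes changed 2-fold and 95% of those changed 4-fold, and in Ly6C hi (10561 genes) 69% and 96%. Changes were planted only in genes with a mean log2(RPM + 1) over 2, so these shares do not cover genes read at lower levels. Plots were drawn with matplotlib 3.10.9, and other values were computed with pandas 2.3.3 and numpy 2.4.6 in Python 3.11.15.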

Additional observations from a re-analysis of the deposited data

Results flagged for a closer look

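Among 118 groups of 4 libraries (members and named examples), 9 that reached over 1 RPM had 1 library far from the other 3 by Dixon's test, which chance gives in about 1 group in 20. Of the members in Ly6C low, *Alas2* stood high in WT replicate 4 (3.22 RPM, the others 0 to 0.21) and in *Slc29a3*-/- *Tlr7*-/- replicate 3 (3.95 RPM, the others 0 to 0.477), *Hemgn* stood low in *Slc29a3*-/- replicate 1 (11.1 RPM, the others 17.0 to 18.03), and *Rhag* stood high in *Slc29a3*-/- *Tlr7*-/- replicate 2 in both subsets (1.83 RPM in Ly6C low, the others 0; 3.66 RPM in Ly6C hi, the others 0 to 0.231). Of the examples in Ly6C low, *Tal1* stood low in *Slc29a3*-/- replicate 1 (1.35 RPM, the others 2.88 to 3.16) and *Prdx2* and *Car1* high in WT replicate 2 (90.6 RPM, the others 67.2 to 70.5, and 94.7 RPM, the others 37.02 to 44.2). In Ly6C hi, *Car1* stood low in WT replicate 4 (18.6 RPM, the others 99.4 to 103). None of these libraries was left out.

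The effect of genotype differed between the subsets for several of the named examples (limma interaction, adjusted over all 11042 genes). For *Slc29a3*-/- against WT, the Ly6C low effect exceeded the Ly6C hi effect by 2.16 on the log2 scale for *Car1*, 2.11 for *Ank1*, and 0.97 for *Bpgm*. For *Slc29a3*-/- against *Slc29a3*-/- *Tlr7*-/-, it did so by 2.37 for *Ank1* (limma adjusted P = 0.00307) and 1.10 for *Bpgm* (adjusted P = 0.0252). The 2 comparisons share the *Slc29a3*-/- libraries. With WT replicate 4 as the only WT, the Ly6C hi effects of *Slc29a3*-/- against WT were -1.25 for *Car1* and -0.56 for *Ank1*.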

How the results depend on the processing

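The member differences in Ly6C low moved by less than 1 SD for 261 values under the alternatives and by more for 19, from a pseudocount of 0.1 or WT replicate 4 as the only WT. In Ly6C hi, 250 member values kept their direction and their side of the threshold, 13 crossed to a call, 13 lost one, and 2 turned with WT replicate 4 as the only WT (*Hemgn* to -0.14 in *Slc29a3*-/- against WT, *Gata1* to 0.20 in *Slc29a3*-/- *Tlr7*-/- against WT); the cause was not tested. Members called in Ly6C hi numbered 3 in *Slc29a3*-/- against WT, 5 in a fit of the 2 groups, and 0 with WT replicate 4 alone (1 to 4 with each library left out); in *Slc29a3*-/- *Tlr7*-/- against WT 1, and 0 under both of these (0 to 3); and between the mutants 0, and 1 under TMM, RLE, a pseudocount of 0.1, the replicate block, or no intensity trend (0 to 1). Other erythroid genes called in Ly6C hi numbered 11 in *Slc29a3*-/- against WT, 7 without the filter, and 0 with WT replicate 4 alone (7 to 15); 1 in *Slc29a3*-/- *Tlr7*-/- against WT, 0 without the filter, with a pseudocount of 0.1, 2 groups, the replicate block, or WT replicate 4 alone, and 8 at the unadjusted P (0 to 9); and 9 between the mutants, and 3 without the filter (5 to 13). In Ly6C low they numbered 7 in *Slc29a3*-/- against WT, 21 at the unadjusted P, and 1 with WT replicate 4 alone (5 to 13); 1 in *Slc29a3*-/- *Tlr7*-/- against WT, 3 under TMM, 2 under RLE, 0 without the filter, with 2 groups, or with WT replicate 4 alone, 6 with 24 libraries, and 13 at the unadjusted P (0 to 7); and 8 between the mutants, 13 with 24 libraries, and 21 at the unadjusted P (5 to 12). Interactions past the threshold numbered 9, 6 under TMM, and 6 to 11 with each library left out, alternatives chosen after seeing the data. The share of all 11042 genes past that threshold is not given here. Same-numbered libraries of different genotypes within a subset did not deviate together (r from -0.19 to 0.16 in Ly6C hi, over 0.1 in 3 of 12 pairs, and from -0.18 to 0.13 in Ly6C low, over 0.1 in 1 of 12), so the numbers were not taken to pair them, and the replicate block gave 12, 0, and 10 calls in Ly6C hi and 7, 1, and 8 in Ly6C low in the order above. Whether same-numbered Ly6C hi and Ly6C low libraries of a genotype came from the same mice was not checked. The fits of 24 libraries take them as independent. The edgeR and DESeq2 alternatives were not run: with zero reads written as 0.0001, the deposited values do not all come out as whole reads as they stand, and no count test was made on the values with 0 restored. Among genes that passed the filter without the *Slc29a3*-/- libraries, 1 of the other erythroid genes was called in Ly6C low against WT and 3 between the mutants, and among those that passed without the WT libraries, 0 members were called in Ly6C hi *Slc29a3*-/- *Tlr7*-/- against WT (chosen after seeing the data; fewer genes are counted). Depth limits *Klf1*, *Fech*, and the embryonic globins, at a few reads per library.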
